A study of Homo sapiens with 7 samples.

Results

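The E2F transcription factor family comprises 8 E2F genes, E2F1 to E2F8, and the DP partner genes TFDP1 and TFDP2. These 10 genes, of 19970 protein-coding genes on chromosomes 1 to 22 and X in GENCODE 44, were taken by name, and Rb peaks were assigned to them when they overlapped the promoter, taken as the window from 2000 bp before to 500 bp after the start of any annotated transcript, or lay within the gene. Rb occupancy was mapped with CUT&RUN, an assay that uses an antibody to bring a nuclease to a chromatin protein and then sequences the fragments cut free, in ZR-75-1, a long-established breast cancer line that expresses the oestrogen receptor. Parental cells were given DMSO or the CDK4/6 inhibitor palbociclib at 500 nM for 4 days, with 2 Rb antibody libraries per treatment. RB1 KO cells, which the methods describe as Cas9-edited cells grown from sorted single cells and which may therefore carry clonal differences beyond RB1, were given the same treatments, with 1 Rb antibody library each. A further library of palbociclib-treated parental cells was made with a non-targeting IgG2a antibody. Peak lists hold neither RNA nor protein levels, so the identity of the cell line and the loss of Rb were taken from the labels.

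E2F proteins bind DNA as dimers with a DP protein, except for E2F7 and E2F8, which bind without one. E2F1, E2F2 and E2F3 are known as activators of genes for DNA replication and the G1/S transition, E2F4 and E2F5 as repressors that act with the Rb-related proteins p107 and p130, E2F6 as a repressor within a Polycomb complex, and E2F7 and E2F8 as atypical repressors of late S phase. Rb is recruited to DNA through E2F–DP dimers, and phosphorylation by CDK4 or CDK6 with cyclin D loosens this contact. Several E2F genes are themselves E2F targets, so the family's own promoters are candidate sites of Rb binding, and the comparison of palbociclib with DMSO asks at which of them Rb was detected once these kinases were inhibited.

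Sequences upstream of 6 of the members are shown because the motif counts below depend on where the summits lay relative to the letters of the E2F motif. Each is a 210-base stretch of GRCh38 directly upstream of transcribed sequence, written 5′ to 3′ on the strand of the gene, with no annotated exonic base. Capitals mark matches on either strand to the E2F motif, searched as the words TTTCCCGC, TTTCGCGC, TTTGCCGC and TTTGGCGC, or to the same words without their first letter, a 7-letter form chosen after the data had been seen. E2F1 and E2F7 had promoter peaks in all 4 parental lists, E2F3 and TFDP1 had peaks of intermediate strength with palbociclib, and E2F2 and TFDP2 had the lowest mean fold enrichment when the strongest peak of each member called in both palbociclib lists was compared.
E2F1, chr20:33686386-33686595, minus strand: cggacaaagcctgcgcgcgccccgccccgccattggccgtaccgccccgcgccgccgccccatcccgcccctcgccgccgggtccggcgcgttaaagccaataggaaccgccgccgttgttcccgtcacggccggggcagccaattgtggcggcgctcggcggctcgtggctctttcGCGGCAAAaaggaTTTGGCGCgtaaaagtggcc
E2F7, chr12:77065570-77065779, minus strand: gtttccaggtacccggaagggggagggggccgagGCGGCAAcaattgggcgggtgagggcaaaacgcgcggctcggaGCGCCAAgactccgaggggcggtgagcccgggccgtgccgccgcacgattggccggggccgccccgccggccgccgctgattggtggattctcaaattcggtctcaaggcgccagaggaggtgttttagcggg
E2F3, chr6:20401669-20401878, plus strand: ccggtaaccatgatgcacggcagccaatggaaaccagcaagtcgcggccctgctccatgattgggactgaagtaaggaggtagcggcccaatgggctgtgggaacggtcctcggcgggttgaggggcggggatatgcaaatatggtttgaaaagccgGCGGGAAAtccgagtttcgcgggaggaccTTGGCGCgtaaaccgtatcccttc
TFDP1, chr13:113584511-113584720, plus strand: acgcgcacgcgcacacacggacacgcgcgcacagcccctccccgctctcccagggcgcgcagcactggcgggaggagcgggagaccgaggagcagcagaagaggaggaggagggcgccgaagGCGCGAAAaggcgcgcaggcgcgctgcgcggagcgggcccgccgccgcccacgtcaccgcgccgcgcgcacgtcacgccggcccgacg
E2F2, chr1:23531234-23531443, minus strand: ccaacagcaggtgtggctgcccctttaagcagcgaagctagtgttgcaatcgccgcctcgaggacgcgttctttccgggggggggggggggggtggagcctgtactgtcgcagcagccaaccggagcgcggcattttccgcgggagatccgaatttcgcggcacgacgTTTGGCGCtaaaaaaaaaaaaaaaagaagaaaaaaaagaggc
TFDP2, chr3:142149545-142149754, minus strand: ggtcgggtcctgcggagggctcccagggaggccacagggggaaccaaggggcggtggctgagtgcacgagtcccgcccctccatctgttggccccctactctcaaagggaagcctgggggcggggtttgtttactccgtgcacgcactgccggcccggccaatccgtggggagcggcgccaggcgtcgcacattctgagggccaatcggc

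The E2F1 stretch held 2 matches to the full 8-letter motif, and the stretches of E2F3, TFDP1 and E2F2 held 1 each. The E2F7 stretch held none of the 8-letter words but 2 of the 7-letter form, and the TFDP2 stretch held neither. Of 15812 RefSeq promoters of protein-coding genes on GRCh38, 300 bases from 250 before to 50 after the start, 4.45% held the 8-letter motif and 17.1% the 7-letter form. The table matched 8 of the 10 members, without E2F5 and E2F8, and of these 8 the promoters of E2F1, E2F2, E2F3 and TFDP1 held the 8-letter motif. A match describes letters and does not show that an E2F protein was bound.

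Rb promoter peaks covered more of the family with palbociclib than with DMSO. A promoter peak was present at 2 members in DMSO replicate 1 and 3 in DMSO replicate 2, beside 5.22% and 4.28% of all genes. With palbociclib it was present at 9 members in replicate 1 and 8 in replicate 2, beside 39.6% and 39.0% of all genes. E2F1 and E2F7 were called in both DMSO lists, 2 of 10 members against 2.9% of all protein-coding genes. In both palbociclib lists 8 of 10 members were called, against 34.9% of all genes, and the exceptions were E2F4 and E2F5. E2F2, E2F3, E2F6, TFDP1 and TFDP2 were called in both palbociclib lists and in neither DMSO list, a pattern shown by 28.4% of all genes. E2F8 was called in both palbociclib lists and in 1 DMSO list (3.66% of all genes), and E2F4 in 1 palbociclib list only (8.82% of all genes). The family was chosen with earlier results of these data known, so these counts carry no test.

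No member had a promoter peak in either RB1 KO list or in the IgG2a list, where 0.01% and 1.95% of all genes had one. The nearest IgG2a peak to any member's start lay 6377 bp from TFDP1, with a fold enrichment of 4.14. No peak of the 7 lists lay within a member gene outside its promoter windows. The lists differed greatly in length, and this bears on every count: DMSO gave 996 and 816 peaks, palbociclib 8399 and 8256, RB1 KO cells 65 and 51 and IgG2a 2648. On chromosomes 1 to 22 and X, where genes were counted, DMSO gave 922 and 753 peaks and palbociclib 8314 and 8171. RB1 KO cells gave only 4 and 5 there, and IgG2a 1724. The genome-wide background floor of a list, which scales with sequenced fragment bases, ranged from 0.465 to 0.571 over the parental Rb lists, was 0.655 (DMSO) and 0.446 (palbociclib) in RB1 KO cells, and was 0.451 for IgG2a. With only the 816 best peaks by q value kept in every parental list, the count in both palbociclib lists went from 8 to 2 members, E2F1 and E2F7, which were also the 2 members in both DMSO lists. A gene without a peak had no deposited value, so absence from a list means only that no region there passed the authors' q cutoff of 0.05 at that depth.

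**Figure D1:**
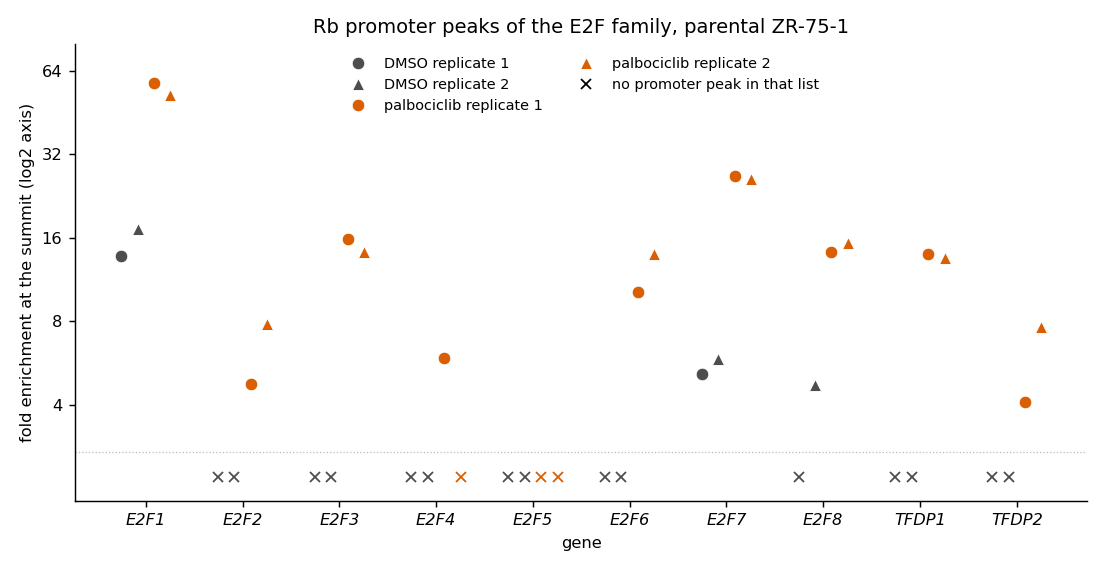
Fold enrichment at the summit of the strongest promoter peak (log2 axis) for each E2F family gene in the 4 parental Rb libraries, with grey symbols for DMSO, orange for palbociclib, circles for replicate 1, triangles for replicate 2, and crosses under the dotted line where a list held no promoter peak. E2F1 and E2F7 have 4 values each, with both palbociclib values above both DMSO values, and E2F5 has none.

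Among the activators, E2F1 had the strongest Rb peak of the family under both treatments. Its fold enrichment, the authors' ratio of fragment pileup plus 1 to local background plus 1 at the summit, was 13.7 and 17.2 with DMSO against 57.7 and 52.4 with palbociclib. The means were 15.4 ± 2.44 and 55.1 ± 3.76 (SD, n = 2 each). The groups did not overlap, as at all 580 genes (100%) called in the 4 parental lists. Recovered from the deposited values, the summit pileup went from 28 and 34 fragments with DMSO to 113 and 106 with palbociclib, over a local background of 0.975 to 1.11 fragments in the 4 lists. By q value the E2F1 peak ranked 72 of 996 and 28 of 816 in the cells given DMSO and 36 of 8399 and 50 of 8256 in those given palbociclib, so it stood near the top of every parental list. Among the 6974 genes called in both palbociclib lists, E2F1 lay at percentile 99.6 of mean fold enrichment.

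E2F3, which has an upstream start for its longer product and a downstream start for a shorter one, was called only with palbociclib and at both starts. The upstream peak had a fold enrichment of 15.8 and 14.2, with a mean of 15.0 ± 1.15 (SD, n = 2). The downstream peak, whose summit lay in intron 1 of the canonical transcript, was weaker in both libraries, at 5.28 and 7.1. The background at both E2F3 peaks was the floor of its list, and the upstream peak rested on a pileup of 23 and 21 fragments. The downstream peak rested on only 7 and 10 fragments. The upstream peak also covered the start of a lncRNA on the opposite strand, ENSG00000289981, so a peak there cannot be assigned to E2F3 alone. No other member shared its peak with a second gene whose start lay within 1000 bp.

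E2F2, the remaining activator, had a weak and less even peak. Its fold enrichment was 4.77 and 7.80 with palbociclib, a mean of 6.28 ± 2.15 (SD, n = 2), and no peak was called with DMSO. The pileup was 13 and 19 fragments over a background of 1.94 and 1.56. E2F2 lay at percentile 28.6 of the genes called in both palbociclib lists, whose median fold enrichment was 8.36.

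The repressors E2F4 and E2F5 were the members with the fewest peaks. E2F4 was called in palbociclib replicate 1 only, with a fold enrichment of 5.90 over 218 bp and a summit in intron 1 of the canonical transcript, 130 bp upstream of the nearest annotated start. In palbociclib replicate 2 the nearest peak lay 7047 bp from the E2F4 start, at the start of ELMO3. E2F5 had no promoter peak in any list, and 11235 of 19970 protein-coding genes had none in either palbociclib list. The nearest peaks to it in DMSO replicate 1 and in both palbociclib lists lay 43382, 43219 and 43086 bp away at the start of CA13, which encodes a carbonic anhydrase, with fold enrichments of 8.91, 15.8 and 18.7. E2F6, whose product represses transcription without contacting Rb-family proteins, was by contrast called in both palbociclib lists at 10.2 and 14.0, a mean of 12.1 ± 2.72 (SD, n = 2), with no peak in either DMSO list.

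The atypical repressors E2F7 and E2F8 both had peaks without palbociclib, although E2F8 did in a single library. The E2F7 values were 5.15 and 5.87 with DMSO against 26.7 and 26.0 with palbociclib. The means were 5.51 ± 0.510 and 26.4 ± 0.437 (SD, n = 2 each). Here too the groups did not overlap, as at all 580 genes (100%) called in the 4 parental lists. By q value it ranked 644 of 996 and 434 of 816 with DMSO, and 267 of 8399 and 284 of 8256 with palbociclib, ranks that cannot be compared between lists of such different length. E2F8 had a fold enrichment of 4.69 in DMSO replicate 2, where it ranked 669 of 816, and of 14.2 and 15.3 with palbociclib, a mean of 14.8 ± 0.809 (SD, n = 2). The E2F8 call with DMSO rested on a pileup of 11 fragments, and DMSO replicate 1 held none.

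The DP partners, which form the dimers through which the typical E2F proteins bind DNA, were called only with palbociclib. TFDP1 had a fold enrichment of 14.0 and 13.6, a mean of 13.8 ± 0.278 (SD, n = 2). This was the smallest SD among the members called in both palbociclib lists, without scaling to the mean. TFDP2 had 4.08 and 7.62, a mean of 5.85 ± 2.51 (SD, n = 2), and lay at percentile 23.1 of the genes called in both palbociclib lists. Its peak in replicate 1 had the lowest −log10 q of the members' peaks in that list, 2.53.

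Ordered by mean fold enrichment with palbociclib, the members ran E2F1, E2F7, E2F3, E2F8, TFDP1, E2F6, E2F2 and TFDP2. The 2 values of E2F3 and E2F8 overlapped, as did those of TFDP1 and E2F6 and those of E2F2 and TFDP2, so these neighbours did not differ beyond their spread. The values of E2F1 and E2F7, of E2F7 and E2F3, of E2F8 and TFDP1 and of E2F6 and E2F2 did not overlap, although E2F8 and TFDP1 were separated only by 14.2 against 14.0. The order of the middle members depended on the local background. By pileup alone TFDP1, with 40 and 36 fragments over a background of 1.94 and 1.73, stood above E2F3, with 23 and 21 fragments over the floor. E2F8 had 31 and 36 fragments and E2F6 19 and 24.

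**Figure D2:**
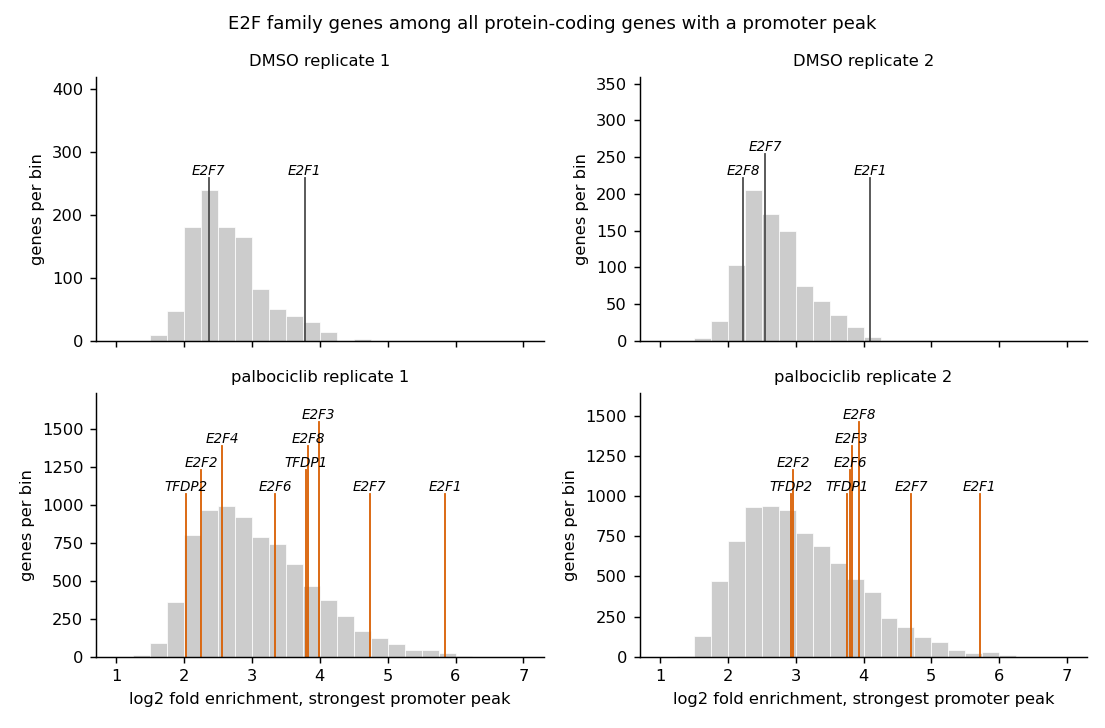
Number of protein-coding genes per bin of log2 fold enrichment of the strongest promoter peak in each parental Rb library (grey bars, linear count axis), with the E2F family genes called in that library marked by vertical lines whose height only separates the labels. E2F1 lies in the upper tail of all 4 lists, E2F7 lies near or below the middle of the much shorter DMSO lists and in the upper tail of the palbociclib lists, and E2F2 and TFDP2 lie near or below the middle.

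In E2F1 and E2F7, the only members with values in all 4 parental lists, the increase with palbociclib was larger than the spread between replicates and within the range seen at other genes. The log2 fold enrichment of E2F1 was higher with palbociclib by 1.84 (SE 0.176), a ratio of 3.58. For E2F7 the log2 difference was 2.26 (SE 0.0961), a ratio of 4.80. For each gene the two-sided exact permutation test of 2 against 2 libraries gave p = 0.333, the smallest value that 6 splits allow. In all 580 genes called in the 4 lists, 100% of those tested, both palbociclib values exceeded both DMSO values, and the median log2 difference was 1.88, with quartiles of 1.64 and 2.13. E2F1 lay at percentile 46.2 and E2F7 at percentile 85.5 of these differences. When each list was divided by the median fold enrichment of its peaks shared by the 4 lists (6.99, 6.80, 26.5 and 25.8), the E2F1 difference turned to −0.081 and that of E2F7 fell to 0.34. The rise at E2F1 was thus no larger than the common one.

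**Figure D3:**
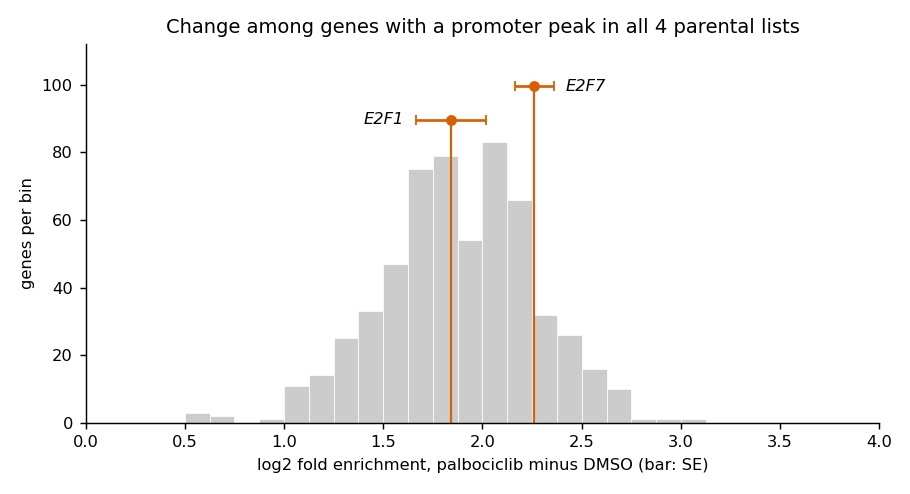
Number of genes per bin of the log2 fold enrichment with palbociclib minus that with DMSO, over the 580 genes with a promoter peak in all 4 parental lists (grey bars), with E2F1 and E2F7 marked at their differences of 1.84 and 2.26 and horizontal bars for their SE. E2F1 lies near the median of 1.88 and E2F7 above the upper quartile of 2.13.

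The peaks of both genes were also wider with palbociclib. The E2F1 peak measured 500 and 494 bp with DMSO against 845 and 798 bp with palbociclib, a difference of 324.5 bp (SE 23.7, exact permutation p = 0.333). The E2F7 peak measured 179 and 130 bp with DMSO against 844 and 1097 bp with palbociclib, a difference of 816 bp (SE 129, exact permutation p = 0.333). All 580 genes called in the 4 lists (100%) had wider peaks in both palbociclib libraries, by a median of 597 bp, and E2F1 lay at percentile 9.66 and E2F7 at percentile 77.8 of these differences. The widening at E2F1 was therefore among the smaller ones, while its DMSO peak was already 497 ± 4.24 bp wide (SD, n = 2) against a median of 269 and 233 bp for promoter peaks of the DMSO lists. The genes most alike E2F1 in fold enrichment over the 4 libraries, by Euclidean distance on the log2 scale among 579 other genes, were PHKG2 (distance 0.287) and STARD9 (0.335). For E2F7 they were SLC2A8 (0.180) and POT1 (0.236).

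The summits showed 2 arrangements, upstream of the start and within the transcribed part. At E2F1 they lay 101, 101, 84 and 111 bp upstream of the single annotated start in DMSO replicates 1 and 2 and palbociclib replicates 1 and 2. At E2F7 they lay 68, 48, 119 and 89 bp upstream in the same order, and at E2F8 167 bp upstream in DMSO replicate 2 and 82 and 138 bp upstream with palbociclib. The upstream E2F3 peak had its summits 163 and 115 bp upstream, the downstream one 229 and 240 bp upstream of its own start, and TFDP1 186 and 196 bp upstream of its nearest start. The strongest palbociclib peaks of E2F1, E2F7, E2F3, E2F8 and TFDP1 thus had their summits upstream of the nearest start. The weak E2F4 peak (5.90) also had its summit upstream of its nearest start, by 130 bp. The share of all promoter peaks with an upstream summit was not determined.

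At E2F2, TFDP2 and E2F6 the summits fell downstream of the nearest start instead. The E2F2 summits lay 459 bp downstream, in the coding part of exon 1, in palbociclib replicate 1 and 204 bp downstream, in its non-coding part, in replicate 2. The TFDP2 summits lay 70 and 97 bp downstream of the nearest start, in the non-coding part of exon 1 of the canonical transcript. At E2F6, which has 10 annotated starts, they lay 172 and 37 bp downstream of the nearest one. The median absolute distance of the summit of a promoter peak to the nearest start was 89 to 99 bp in the 4 parental lists. The E2F2 summits lay farther out than this median and those of E2F1 close to it. Other members also had summits beyond it, such as TFDP1 (186 and 196 bp) and the downstream E2F3 peak (229 and 240 bp).

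**Figure D4:**
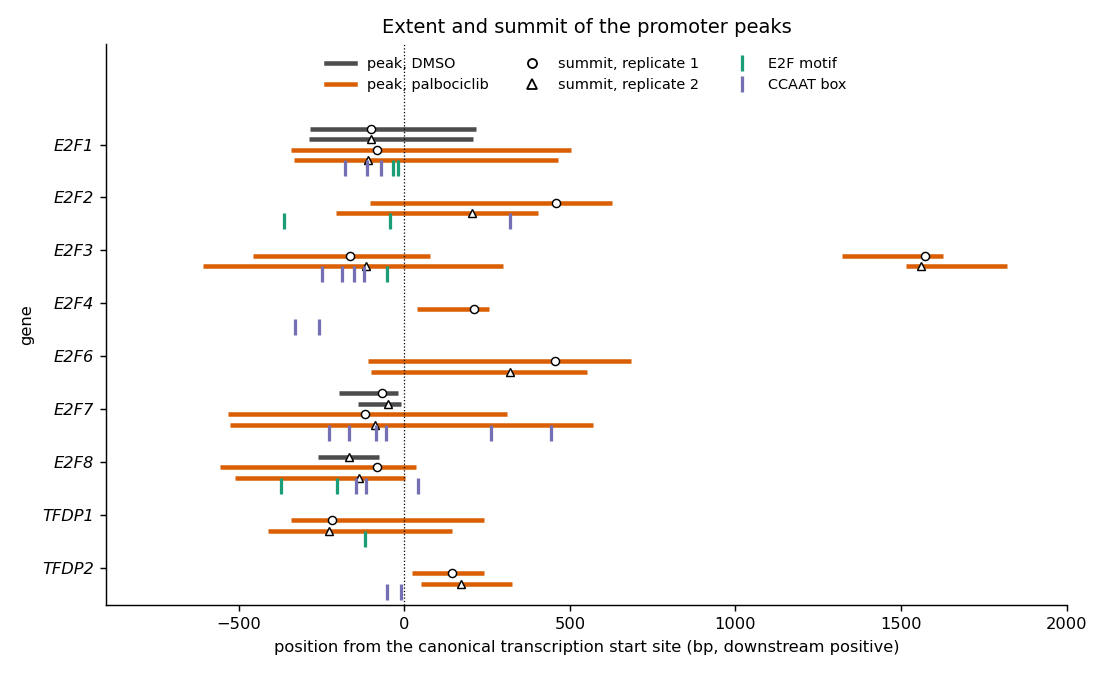
Extent (bars) and summit (circles for replicate 1, triangles for replicate 2) of each promoter peak in bp from the canonical transcription start site, downstream positive, in the parental DMSO (grey) and palbociclib (orange) lists, with ticks for 8-letter E2F motif matches (green) and CCAAT boxes (purple). The E2F1, E2F7 and E2F8 summits lie upstream of the start under both treatments, the E2F2, E2F4, E2F6 and TFDP2 summits lie downstream of it, and E2F3 has a second peak 1571 and 1560 bp downstream at the summit.

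Within 100 bp on either side of each summit, the 8-letter E2F motif was found at 1 of 9 members with a peak in palbociclib replicate 1, E2F1, and at 3 of 8 in palbociclib replicate 2, E2F1, E2F3 and E2F8. Both E2F1 matches lay in the window in all 4 lists. The E2F3 match lay in the window of palbociclib replicate 2 only, and E2F8 had 1 match in DMSO replicate 2 and in palbociclib replicate 2 and none in palbociclib replicate 1. The motif was present in 11.2% and 12.1% of all promoter peak windows with DMSO, against 5.27% and 5.61% with palbociclib. The TFDP1 match came into view within 200 bp on either side of the summit, a width chosen after the data had been seen. At that width 10.8% and 10.6% of all palbociclib promoter peak windows held the motif. The E2F2 match shown above lay outside even that window.

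The 7-letter form was found at 4 of 9 members in palbociclib replicate 1, E2F1, E2F2, E2F4 and E2F7, and at 4 of 8 in replicate 2, E2F1, E2F3, E2F7 and E2F8, beside 23% and 23.1% of all promoter peak windows in these lists. The E2F7 windows held 1 match in each DMSO list and 2 in each palbociclib list, the capitals in its sequence above. The E2F6 and TFDP2 windows held neither form. CCAAT boxes (CCAAT on either strand), the letters bound by the factor NF-Y, were present in 23.8% and 24.6% of palbociclib windows. The shares were 29.2% and 35.1% of DMSO windows. The windows of E2F1 held 3 in every list, those of E2F7 2 or 3, those of the upstream E2F3 peak 4 and 3 and those of E2F8 2, while the windows of E2F2, E2F4, E2F6, TFDP1 and TFDP2 held none. Within 200 bp on either side of the summit, E2F2 had 1 and 1 in the palbociclib lists and TFDP2 had 2 and 1. At that width 37.5% of all promoter peak windows held a CCAAT box in each palbociclib list. The CHR element (TTTGAA, its variant TTCGAA or the other variant TTTAAA), the letters contacted by the MuvB complex, was found in the windows of E2F3 in palbociclib replicate 2 and of E2F8 in DMSO replicate 2 and palbociclib replicate 2, against 5.50% and 5.72% of palbociclib windows. The word GGGCGG, bound by SP and KLF factors, lay in at least 1 window of E2F1, E2F3, E2F4, E2F6, E2F7, E2F8 and TFDP2 and in 68.1% and 69.3% of all palbociclib windows. The cyclic AMP response element TGACGTCA was found at no member (1.00% and 1.04% of palbociclib windows), and the E-box CACGTG at the downstream E2F3 peak and at E2F6 in replicate 1 (5.54% and 5.64%).

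Other genes of the Rb–E2F pathway were read from 4 lists, given here by counts beside the 2.9% and 34.9% of all genes. Of 10 pocket protein and MuvB genes, 1 was called in both DMSO lists and 9 in both palbociclib lists. These genes encode Rb, its relatives and subunits or partners of the MuvB complex. RBL1, which encodes p107, had 15.4 and 13.8 with DMSO and 39.9 and 46.0 with palbociclib, and RBBP4 and LIN54 followed with palbociclib means of 12.7 and 12.5. RBL2, which encodes p130, was called in no list, and RB1 itself had 5.13 and 6.30 with palbociclib only (both named after their values had been seen). The p130 gene and E2F5 thus lacked a promoter peak in both palbociclib lists, as did 11235 of 19970 protein-coding genes. The p107 gene had the strongest palbociclib peaks of the 10 genes.

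A list of 16 genes held cyclins, kinases, inhibitors and other regulators that act upstream of Rb. Of these, 3 were called in both DMSO lists and 13 in both palbociclib lists. The highest palbociclib means were those of the cyclin E genes CCNE2 and CCNE1, at 54.4 and 27.7, and of the CDK4/6 inhibitor gene CDKN2C at 26.1. Of 12 genes of the Polycomb complex that holds E2F6, 0 were called in both DMSO lists and 6 in both palbociclib lists, with WDR5, PCGF6 and CBX3 highest at 13.8, 7.97 and 7.80. All 18 S-phase genes known as E2F targets were called in both palbociclib lists and 8 in both DMSO lists, with CDC6, MCM5 and PCNA, which act in replication licensing and at the fork, highest at 71.0, 55.3 and 38.5. E2F1, at a mean of 55.1, thus had a value like those of MCM5 and CCNE2.

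The median of mean palbociclib fold enrichment was 14.3 over the 8 members called in both palbociclib lists, 10.5 for the pocket protein and MuvB genes, 11.5 for the upstream regulators, 7.17 for the Polycomb genes and 14.5 for the S-phase genes, beside 8.36 over all 6974 genes called. Genes called in all 4 lists had a median of 25.6, those called in 1 DMSO list 14.9 and those called in neither 7.42. Set against these classes, E2F1 stood above and E2F7 and E2F8 near the median of their class, E2F3, TFDP1 and E2F6 stood above theirs, and E2F2 and TFDP2 below it. Of the 4 lists 1 gene, TYMS (named after its value had been seen), also had an IgG2a promoter peak (4.85), and none had an RB1 KO peak.

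**Figure D5:**
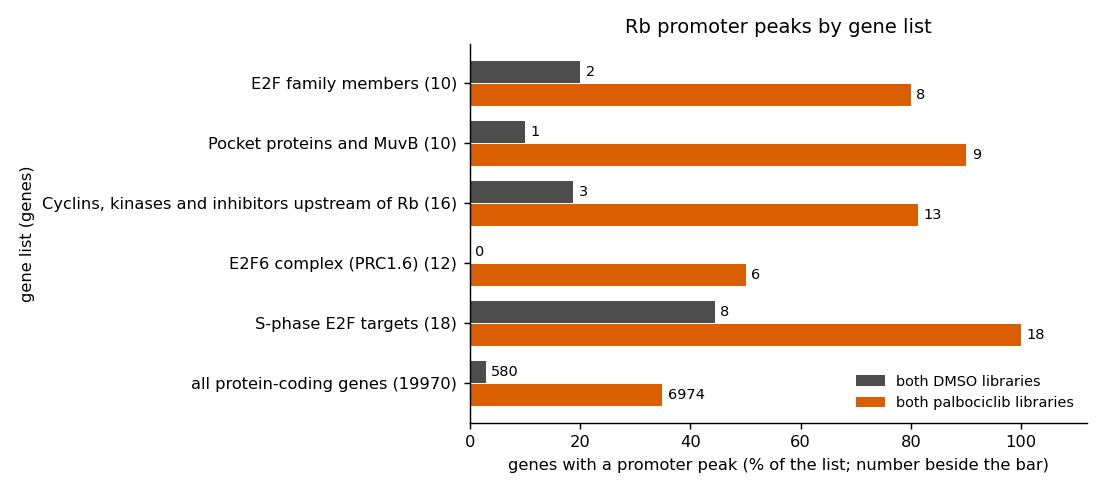
Share of genes (percent of the list, linear axis from 0) with an Rb promoter peak in both DMSO libraries (grey) and in both palbociclib libraries (orange) for the E2F family, 4 lists of the Rb–E2F pathway and all protein-coding genes, with the number of genes beside each bar. The family goes from 2 to 8 of 10 genes and the S-phase genes from 8 to 18 of 18, beside 580 and 6974 of 19970 genes.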

How the data were processed

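Rb CUT&RUN was performed in ZR-75-1 cells, with groups as given by the sample titles. Per the methods and the submitters' processing notes, the authors mapped trimmed reads with Bowtie2 2.3.4.1 on hg38, filtered out mitochondrial and blacklisted reads without removing duplicates, and ran MACS2 2.2.7.1 separately on every library against an IgG control at a q-value cutoff of 0.05. The control used for the IgG2a list is not given in the sources used here. The deposited lists give each peak's position, its summit, its fold enrichment (the authors' ratio of pileup to local background) and its −log10 p and −log10 q. No other deposited value was used.

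Promoters came from GENCODE 44 on GRCh38, the same assembly as hg38, and no peak lay beyond a chromosome end. The strongest promoter peak per gene and list was used, and 1 bp of overlap sufficed. MACS2 writes (pileup + 1)/(background + 1) and a Poisson p, so whole-number pileups and backgrounds were recovered for every peak, where −log10 p was met to within 0.0055, by code tested on simulated data. Depth was read only from the background floor, since read totals were not used here. Groups of 2 libraries were compared with two-sided exact permutation tests, and groups of 1 were not tested. Replicates are separate biological samples of 1 experiment. Replicate numbers were not taken as pairs, since deviations of same-numbered libraries correlated by 0.0648 over 580 genes.

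Percentiles are among genes, or peaks, of the same list. Motifs were searched as exact letters on both strands. The genes named were the 10 members, genes with a start within 1000 bp of a member's peak, the 2 genes most alike each member called in all 4 parental lists, and up to 3 genes per pathway list by highest mean fold enrichment with palbociclib. The members and the gene lists were chosen with earlier results of these data known. Alternatives covered the promoter definition, peak cutoffs, list length, scaling, leaving out libraries, the replicate block and the motif form. Python 3.11.15, numpy 2.4.6, pandas 2.3.3, scipy 1.17.1 and matplotlib 3.10.9 were used.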

Additional observations from a re-analysis of the deposited data

How the results depend on the processing

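The 7 results examined, the counts of members called, the fold enrichment and width differences of E2F1 and E2F7 and the motif count, gave 48 values under alternative settings, of which 3 counts moved beyond the margin set for them and 1 difference changed sign. With −log10 q of at least 5 the count in both DMSO lists was 1, E2F1, and with lists of equal length the count in both palbociclib lists was 2. The count in both palbociclib lists was 6 both with −log10 q of at least 5 and with a fold enrichment of at least 5. The 7-letter motif and the wider summit window were chosen after seeing the data, and the 7-letter form gave 6 members with a match in either palbociclib list, against 3 with the 8-letter form. Scaling by the median of shared peaks turned the E2F1 log2 difference to −0.081 and left 0.34 of the 2.26 at E2F7. Leaving out 1 library at a time gave 2 to 3 members with DMSO and 8 to 9 with palbociclib, E2F1 log2 differences of 1.68 to 2.00, E2F7 log2 differences of 2.17 to 2.36, E2F1 width differences of 301 to 348 bp and E2F7 width differences of 689.5 to 942.5 bp.

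With the replicate number as a block, the differences of 1.84 and 2.26 on the log2 scale and of 324.5 and 816 bp were the same, with p = 0.5 by exact sign flips, the smallest value 2 pairs allow. The exact permutation test of 2 against 2 libraries cannot give a p under 0.333, and 1 library per group for RB1 KO and IgG2a allows no test. The peaks of E2F8 with DMSO and of E2F4, at 11 fragments each, and of TFDP2 in palbociclib replicate 1, at 9, rested on few fragments. So did the downstream E2F3 peak, at 7 and 10 fragments in palbociclib replicates 1 and 2.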
